A study of Mus musculus with 9 samples.

Results

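Genes that pattern the eye along its dorsoventral and nasotemporal axes were followed in mouse retinal organoids. They were the ventral genes Vax1, Vax2 and Vax2os, the dorsal genes Bmp4, Tbx2, Tbx3 and Tbx5, and the temporal gene Foxd1. They were chosen by name, after Vax2os had been seen to differ in the Isl1KO samples, and all probes carrying these names were taken: 12 of 56605 probes, for 8 of 37074 gene names. Of the 8 genes, 7 had a probe detected well above background in 3 or more of the 9 arrays and entered the fit of 23594 genes; Foxd1 did not. Retinal organoids are retina-like tissues grown from mouse ES or iPS cells in floating, serum-free culture.

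The lines were wild type (WT, also labelled NCT), B4KO, a knockout of Bhlhb4 (now Bhlhe23), and Isl1KO, a knockout of Islet-1. The study made the knockouts to lower the number of bipolar cells. Each line was harvested after 10, 16 and 23 days of differentiation (DD10, DD16 and DD23), with 1 array for each harvest and 5 organoids pooled in each sample. No line and day had a replicate. The sources used here do not say whether a line was 1 clone or which part of each gene was deleted. WT and Isl1KO shared a slide and B4KO had a slide of its own, so the B4KO line and its slide cannot be told apart. Each day also kept to 1 column of the slides, so day and column cannot be told apart either.

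In the embryonic eye, BMP4 made in the dorsal optic cup promotes expression of Tbx5 and keeps Vax2 out of the dorsal retina. The homeodomain factors Vax1 and Vax2 act in the optic stalk and ventral retina, and the T-box factors Tbx2, Tbx3 and Tbx5 act dorsally. Vax2os is a long noncoding RNA transcribed from the strand opposite Vax2 and known from the retina, while the forkhead factor Foxd1 marks the temporal side of the retina.

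Each array carried 59305 gene spots, of which 57.3% to 67.8% were well above background and 0 were saturated. All 10 retina and optic cup markers, Rax and Six3 among them, were well above background on every array. Levels below are log2 intensity relative to the 75th percentile of the array, called the log2 level. Markers of other tissues were present too. In the fit were 6 of 6 forebrain markers, 4 of 7 hypothalamic and ventral forebrain markers (Lhx6, at log2 levels of 1.41 to 2.80, among them) and 5 of 8 mesenchymal markers (Col1a1 among them). Otp, Sim1 and Twist1 were well above background on 0 arrays. The Isl1 probe from 117099604 on chromosome 13 (build mm9) read -1.24, -0.44 and -1.63 in Isl1KO at DD10, DD16 and DD23, and -0.60, 1.45 and -0.05 in WT. The other Isl1 probe, from 117088774, read -0.88, 0.10 and -0.92 in Isl1KO and -1.25, 0.85 and -0.66 in WT. Isl1 signal was thus lower than in WT with both probes at DD16 and DD23, and with 1 of them at DD10. Bhlhe23 was at -3.41 in B4KO and -3.20 in WT at DD10; in B4KO it was not well above background at DD16 and DD23, where WT read -2.82 and -4.55. Isl1KO also had less Bhlhe23 than WT at DD16, at -4.55, and was not well above background at DD23 (-6.56, against -6.64 in B4KO).

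Vax2os was read by 3 probes of different transcript variants, all on the minus strand of chromosome 6 in the mm9 coordinates of the array design. Their sequences are shown because the probes gave unequal differences between the lines. Capitals in the variant 2 probe mark AATAAA, a polyadenylation hexamer, which starts at base 43 and which 9.77% of all 56605 probes hold on the probe strand. The variant 1 probe lies at chr6:83652173-83652232, the variant 2 probe at chr6:83642806-83642865, and the variant 4 probe at chr6:83652628-83653230, a span of 603 bases for 60 bases of probe, as a probe across a splice junction has.
Vax2os variant 1 probe: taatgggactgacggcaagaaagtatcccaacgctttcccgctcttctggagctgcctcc
Vax2os variant 2 probe: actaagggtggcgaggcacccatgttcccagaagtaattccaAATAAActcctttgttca
Vax2os variant 4 probe: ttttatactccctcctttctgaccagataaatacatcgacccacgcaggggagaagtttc

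RefSeq (GRCm38.p6) gave promoters, from 250 bases before to 50 bases after the transcript start, for 4 of the 8 genes, with 2 for Vax2os. Both Vax2os promoters are shown because Vax2os had the largest difference between lines among the 8 genes. The variants read by the probes were not matched to either promoter. They lie on the minus strand at chr6:83712152-83712451 and chr6:83710776-83711075, and capitals mark the 50 bases from the transcript start.
Vax2os promoter 1: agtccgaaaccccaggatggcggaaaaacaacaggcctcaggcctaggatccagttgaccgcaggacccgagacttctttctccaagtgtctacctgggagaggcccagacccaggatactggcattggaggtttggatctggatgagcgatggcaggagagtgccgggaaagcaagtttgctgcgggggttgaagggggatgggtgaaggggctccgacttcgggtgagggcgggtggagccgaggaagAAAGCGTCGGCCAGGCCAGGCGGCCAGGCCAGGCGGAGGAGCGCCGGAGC
Vax2os promoter 2: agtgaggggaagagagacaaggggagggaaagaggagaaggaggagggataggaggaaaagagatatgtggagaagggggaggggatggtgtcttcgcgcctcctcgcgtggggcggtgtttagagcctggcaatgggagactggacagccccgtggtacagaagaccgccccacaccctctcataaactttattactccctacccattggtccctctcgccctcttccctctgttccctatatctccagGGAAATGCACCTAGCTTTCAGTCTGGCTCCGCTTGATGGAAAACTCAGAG
GC made up 63% of the first and 55.7% of the next, against a median of 52.7% over all promoters. On both strands, the promoters of Vax2os, Vax1, Bmp4 and Foxd1 were searched for CTAATG (an Islet-1 motif, held by 7.36% of 32851 promoters), CATATG (an E-box, 3.91%) and AGGTGTGA (a T-box site, 1.28%). None of the 5 sequences held any of these motifs.

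Vax2os was high in all Isl1KO samples and, outside that line, in B4KO at DD23 alone. With the variant 1 probe, the brightest on average, the log2 level in WT was -5.38 at DD10, -4.89 at DD16 and -5.29 at DD23, not well above background on any day. In B4KO it was -5.54 and -5.39 at DD10 and DD16, also not well above background, and -1.46 at DD23. In Isl1KO it was -2.18, 0.30 and -0.28, well above background on all 3 arrays and above every array of the other lines except that Isl1KO at DD10 was lower than B4KO at DD23.

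Where an array was not well above background, folds are lower bounds, with the dim value raised to the lowest signal well above background on its array. Vax2os was at least 5.05-fold higher in Isl1KO than in WT at DD10, at least 22.9-fold at DD16 and at least 26.0-fold at DD23. These were the values on which the genes were chosen, so they are given as a description with no test. Over the days the mean bound was at least 14.4-fold. The fit, which takes the dim WT values as read, gave 4.47 on the log2 scale (SE 0.95, n = 3 arrays per line), and 2.68 after normexp background correction. In these bulk samples more cells expressing a gene and more RNA per cell cannot be told apart.

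Within Isl1KO, Vax2os was 5.59-fold higher at DD16 than at DD10, and 1.49-fold lower at DD23 than at DD16, each a comparison of 2 arrays with no test. In B4KO it was at least 8.78-fold higher at DD23 than at DD16, and at least 11.5-fold above WT at DD23. Isl1KO was still 2.26-fold above B4KO on that day. The B4KO array at DD23 also had the highest summed level of 7 of 8 pigment epithelium markers, 130 times its 75th percentile against 47.5 to 68.3 on the other 8 arrays, with Rpe65 well above background on 0 arrays. That sum was mostly Ttr, at a log2 level of 6.83 against at most 5.55 elsewhere, while Pmel (1.38) and Tyr (-2.02) were below WT at DD23 (1.73 and -1.81). The part of these markers in the Vax2os value was not tested. Over all 3 days the B4KO minus WT difference was 1.06 (SE 0.95, adjusted p = 0.464, limma with Benjamini-Hochberg adjustment), and -0.20 without B4KO at DD23.

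The variant 2 probe followed the variant 1 probe: it was well above background on the same 4 arrays, at -2.36 in B4KO at DD23 and at -3.26, -0.14 and -0.83 in Isl1KO. On the other 5 arrays it read -7.24 to -6.46. It put Isl1KO at least 2.39-fold, 16.9-fold and 17.7-fold above WT on the 3 days. The variant 4 probe gave the same order of Isl1KO and WT with a smaller gap. It read -4.34, -4.47 and -4.45 in WT, -4.90, -5.12 and -4.08 in B4KO, and -3.96, -2.81 and -3.13 in Isl1KO. Isl1KO was 1.30-fold above WT at DD10, at least 2.64-fold at DD16 and 2.51-fold at DD23 with that probe.

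**Figure D1:**
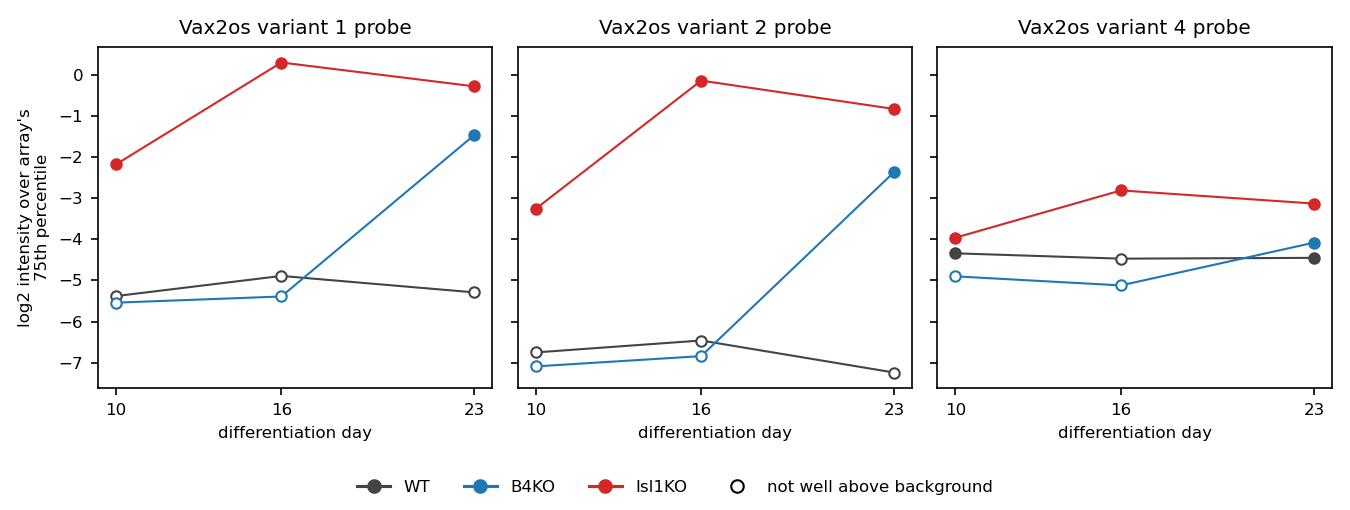
Log2 intensity relative to the array's 75th percentile (y axis) by differentiation day (x axis) for the 3 Vax2os probes, 1 point per array, joined within a line; open points were not well above background. Isl1KO is above WT on each day with all 3 probes, and B4KO at DD23 is high with the variant 1 (-1.46) and variant 2 (-2.36) probes.

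Vax2, the ventral homeodomain factor, was in the same order on every day, highest in Isl1KO and lowest in B4KO. Its probe (chr6:83688239-83688298, plus strand, mm9) was well above background on all 9 arrays. The log2 level in WT was 1.72, 1.75 and 1.56 at DD10, DD16 and DD23. In Isl1KO it was 2.22, 2.94 and 2.67, above every WT and B4KO array, as was so for 0.915% of the genes in the fit. In B4KO it was 0.94, 0.81 and 1.45, below every array of the other lines, as was so for 15.2% of genes.

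The fitted Vax2 difference of Isl1KO from WT was 0.94 (SE 0.22), or 1.91-fold, with 0.50, 1.19 and 1.11 at DD10, DD16 and DD23; it has no test, since this contrast led to the choice of genes. Vax2 therefore lay above WT on the same days and in the same line as Vax2os, by a smaller amount. Markers of other retinal cells also differed in Isl1KO: 6 of 7 ganglion cell markers were below WT (median -0.84, against 0.01 for all genes). Thy1 was at -1.83 and Nefl at -1.45, while Pou4f1 was at -0.10 and Pou4f2 at 0.25. Summed levels of the 7 markers at DD10, DD16 and DD23 were 13.3, 14.4 and 13.5 in Isl1KO. In WT they were 12.8, 24.4 and 23.4, so the sum was not lower in Isl1KO at DD10. All 7 pigment epithelium markers in the fit were also below WT (median -0.37). Their part in the Vax2 and Vax2os values was not tested. B4KO minus WT was -0.61 (SE 0.22, adjusted p = 0.101 by limma with Benjamini-Hochberg adjustment), lower on 3 of 3 days by 0.78, 0.94 and 0.10. The DD23 gap was smaller than this SE, which is that of the mean over 3 days and not of a single day. Isl1KO above WT and B4KO below WT on each of the 3 days, as here, was found for 4.35% of genes. With an intensity trend in the variance model this difference passed the threshold at an adjusted p of 0.049. Relative to WT, Vax2 and Vax2os parted in B4KO at DD23, where Vax2os was far above WT and Vax2 was not. Within B4KO both were higher at DD23 than at DD16, Vax2 by 1.56-fold and Vax2os by at least 8.78-fold. Within Isl1KO both were higher at DD16 than at DD10, by 0.72 and 2.48. Both were then lower at DD23 than at DD16, by 0.27 and 0.58. Each step compares 2 arrays and has no test. Across the 9 arrays, which share lines and days, the log2 levels of Vax2 and Vax2os had a Pearson's r of 0.81, with Vax2os well above background on 4 arrays only.

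Averaged over the lines, Vax2 did not change detectably with day. DD16 minus DD10 was 0.21 (adjusted p = 0.476, limma) and DD23 minus DD16 was 0.06 (adjusted p = 0.851, limma), both with an SE of 0.22. The latter was -0.17 without B4KO at DD16 and -0.15 without B4KO at DD23. The lines differed in their steps. DD16 minus DD10 was 0.04 in WT, -0.13 in B4KO and 0.72 in Isl1KO. DD23 minus DD16 was -0.2 in WT, 0.64 in B4KO and -0.27 in Isl1KO, with no test within a line.

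Genes within 200 kb of Vax2 and Vax2os did not share their difference between Isl1KO and WT. Distances are from the variant 1 probe in mm9, and each value is the mean difference over 3 days. Vax2, 36.1 kb away, differed by 0.94. The neighbours well above background on all arrays stayed close to 0: Actg2, an actin gene, at -0.01 (-179.3 kb), Stambp, a deubiquitinase, at -0.05 (-158.9 kb), 1700124L16Rik at -0.11 (59.6 kb), and Tex261 at 0.19 (68.2 kb). Farther on, the main probes of Nagk, a sugar kinase, and Paip2b read -0.09 and 0.09 (100.3 and 103.9 kb). Clec4f, Cd207, Atp6v1b1, Ankrd53 and Gm21284 were well above background on at most 1 array, so their differences are not measured ones.

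**Figure D2:**
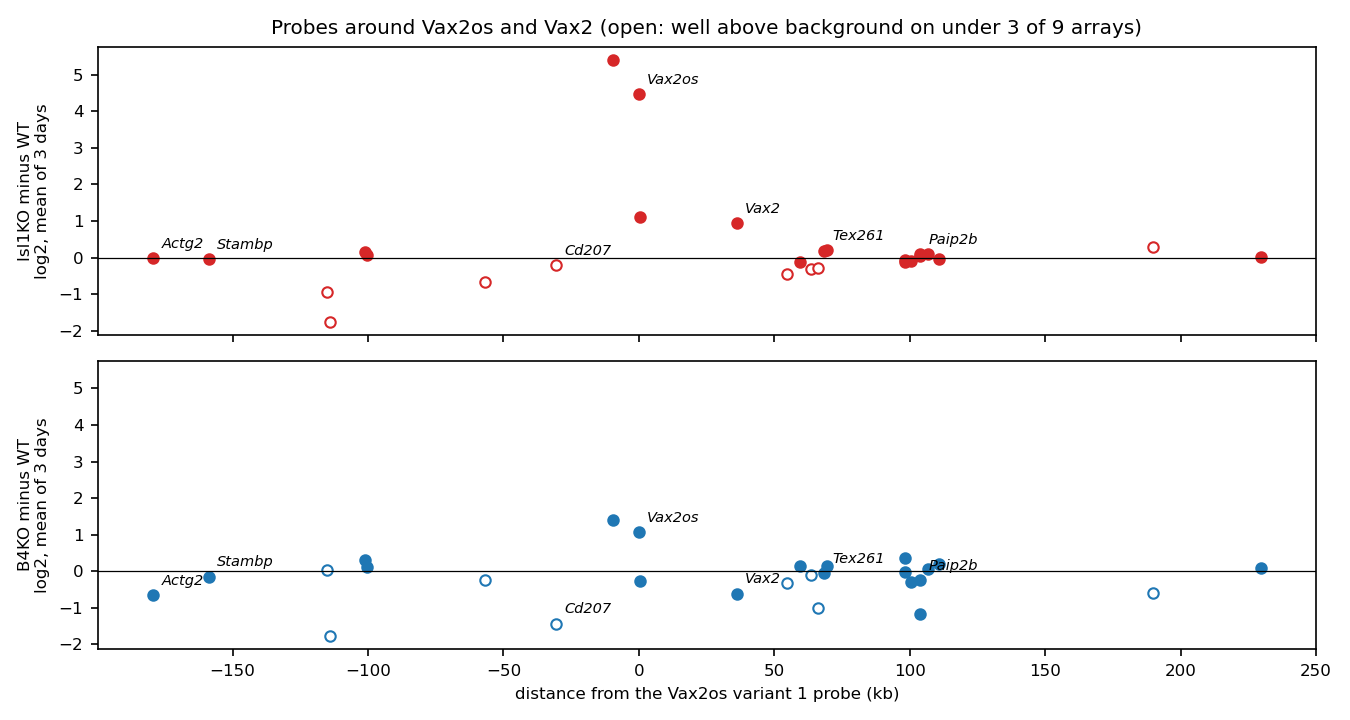
Mean log2 difference from WT over 3 days (y axis) of each probe around Vax2os and Vax2 by distance from the Vax2os variant 1 probe in kb (x axis), for Isl1KO (upper panel) and B4KO (lower panel). In Isl1KO the Vax2os probes (1.12 to 5.40) and Vax2 (0.94) lie above all other filled points. Values of dim arrays are plotted as read, so the Vax2os heights against WT are not measured sizes (bounds of the upper points: at least 8.93-fold and 14.4-fold); open points were well above background on under 3 of 9 arrays.

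Vax1, the optic stalk paralogue of Vax2, was dim and had no order of lines that held across days. Its probe (chr19:59240677-59240736, minus strand, mm9) was well above background on 5 arrays. WT reached -2.61 at DD16 but was not well above background at DD10 (-4.67) and DD23 (-5.52). B4KO read -4.88, -5.43 and -4.08, measured at DD23 alone, and Isl1KO read -4.58, -4.21 and -4.11, measured on all days. The WT array at DD16 thus stood out, at least 3.75-fold above WT at DD10 and at least 5.15-fold above WT at DD23. It was 3.04-fold above Isl1KO and at least 3.94-fold above B4KO on the same day. At DD23 the order turned, with B4KO at least 1.87-fold and Isl1KO at least 1.82-fold above WT. The fitted differences were -0.03 for Isl1KO minus WT and -0.53 for B4KO minus WT (both SE 0.74), the latter with an adjusted p of 0.643 by limma. It was 0.44 without WT at DD16 and 0.23 without B4KO at DD16. The day steps, 0.63 and then -0.48, were also not called (adjusted p = 0.527 and 0.632, limma), and without WT at DD16 they were -0.34 and 0.48.

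Bmp4, the dorsal ligand, fell with time in every line. Its brighter probe (chr14:47003391-47003450, minus strand, mm9) gave log2 levels of 2.74, 0.63 and -0.82 in WT at DD10, DD16 and DD23. It gave 2.64, 0.75 and -0.04 in B4KO, and 2.67, -0.21 and -1.15 in Isl1KO. All DD10 arrays lay above all DD16 and DD23 arrays, as was so for 17.8% of genes, and with this probe the lines were within 0.10 of each other at DD10. The fall from DD10 to DD16 was 4.91-fold (log2 -2.30, SE 0.24, adjusted p = 0.00175, limma with Benjamini-Hochberg adjustment). From DD16 to DD23 it was 2.09-fold (-1.06, SE 0.24, adjusted p = 0.0168). The earlier step was called under all 18 alternatives run, and the later one lost its call on leaving out any of WT at DD16, WT at DD23, B4KO at DD16 or Isl1KO at DD23 (adjusted p 0.0584 to 0.0728). The other Bmp4 probe, from 47003802, gave day steps of -2.55 and -0.87. At DD10 that probe read 0.50 in WT, 0.28 in B4KO and 0.62 in Isl1KO.

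Bmp4 in Isl1KO was below WT by 0.07, 0.84 and 0.32 on the 3 days (fitted -0.41, SE 0.24, no test), and the other probe gave 0.12, -1.03 and -0.29. The probes thus put Isl1KO below WT at DD16 and DD23 and disagreed in sign at DD10. B4KO minus WT was 0.27 (SE 0.24, adjusted p = 0.468, limma), with its largest gap at DD23.

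Tbx5, the T-box factor most closely tied to BMP4 in the dorsal retina, fell at each step as Bmp4 did. Its log2 level (chr5:120334087-120334146, plus strand, mm9) was 2.57, 2.14 and 1.34 in WT, 3.63, 2.47 and 1.82 in B4KO, and 3.21, 1.77 and 1.04 in Isl1KO. Every DD10 array was above every DD16 array. DD16 minus DD10 was -1.0 (SE 0.20, adjusted p = 0.012, limma with Benjamini-Hochberg adjustment). DD23 minus DD16 was -0.73 (SE 0.20, adjusted p = 0.0317), and -0.80 to -0.66 within the lines. On the slide of WT and Isl1KO alone the steps were -0.93 and -0.76 and neither was called (adjusted p = 0.091 and 0.123). Leaving out Isl1KO at DD16 ended the first call (adjusted p = 0.0539), and leaving out any of the 6 arrays of DD16 and DD23 ended the second (0.0579 to 0.12), as did using no filter on dim probes (0.0676).

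Tbx2 and Tbx3, T-box factors of the same dorsal domain, were lower at each later day in both knockouts, but not lower at DD16 than at DD10 in WT. The log2 level of Tbx2 (chr11:85655384-85655443, plus strand, mm9) was 3.16, 3.36 and 2.98 in WT, 4.32, 3.48 and 3.27 in B4KO, and 3.87, 3.32 and 2.83 in Isl1KO. Tbx3 (brighter probe chr5:120134511-120134570, plus strand) read 2.42, 2.59 and 1.83 in WT, 3.84, 2.75 and 2.09 in B4KO, and 3.20, 2.27 and 1.76 in Isl1KO. Neither passed the threshold in a day step. For Tbx2 the steps were -0.40 and -0.36 (SE 0.21, adjusted p = 0.18 and 0.222, limma), and for Tbx3 -0.61 and -0.64 (SE 0.26, adjusted p = 0.105 and 0.0925). Without the WT array at DD10 all 4 steps were called, Tbx2 at -0.69 and -0.36 (adjusted p = 0.0118 and 0.0331) and Tbx3 at -0.98 and -0.64 (0.00565 and 0.00794). The other Tbx3 probe, from 120132985, read the same pattern, with DD16 minus DD10 at 0.38 in WT, -1.0 in B4KO and -0.80 in Isl1KO.

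In each day step, 2 of the 7 axis genes in the fit were called, both lower and both times Bmp4 and Tbx5, against 40.7% of all genes called from DD10 to DD16 (18.8% lower and 21.9% higher) and 41.2% from DD16 to DD23 (21.9% lower and 19.3% higher). A share of 2 in 7 is close to the share of all genes called lower. Both steps were downward in every line for Bmp4 and Tbx5, a pattern that 16.1% of genes had.

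The T-box genes separated the lines at DD10. B4KO exceeded WT by 1.16 for Tbx2, 1.42 for Tbx3 and 1.06 for Tbx5 on the log2 scale, and Isl1KO exceeded the same WT array by 0.71, 0.78 and 0.64. All 3 genes were at least 1.5-fold above WT in both knockouts, a limit chosen after the values were seen, which 1.95% of all genes met. Bmp4 was not: on that day its brighter probe was below WT by 0.10 in B4KO and by 0.07 in Isl1KO. The other Bmp4 probe gave differences of -0.22 in B4KO and 0.12 in Isl1KO. The WT array at DD10 also had the highest summed level of 6 forebrain markers, 35.9 times its 75th percentile against 16 and 18.6 in the knockouts on that day and 2.01 to 7.89 later. Its summed level of the 10 retina and optic cup markers was the lowest of all arrays, 116 against 146 to 335. Their part in the T-box values was not tested.

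After DD10 the lines were closer, and Isl1KO was at or below WT for the T-box genes. B4KO stayed above WT on each day, by 0.12 and 0.30 for Tbx2, 0.17 and 0.27 for Tbx3, and 0.33 and 0.48 for Tbx5 at DD16 and DD23. Over the days, B4KO minus WT was 0.53 for Tbx2 (SE 0.21, adjusted p = 0.133), 0.62 for Tbx3 (SE 0.26, 0.142) and 0.62 for Tbx5 (SE 0.20, 0.0781), all by limma. Without WT at DD10 these were 0.23, 0.25 and 0.35. Isl1KO minus WT was 0.17, 0.13 and -0.01 for Tbx2, Tbx3 and Tbx5, and -0.12, -0.23 and -0.28 without WT at DD10, with no test. The dorsal genes thus did not share the Vax2os and Vax2 pattern of Isl1KO above WT at all 3 days.

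Between B4KO and WT, 0 of 7 axis genes were called by limma, against 22.0% of all genes (3.99% higher and 18.0% lower), while Vax2, Tbx2 and Tbx5 (3 of 7) had an unadjusted p under 0.05, as did 36.5% of all genes. Tbx5 was called after normexp background correction (adjusted p = 0.0341), and Vax2 and Tbx5 with an intensity trend (0.049 and 0.0342).

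**Figure D3:**
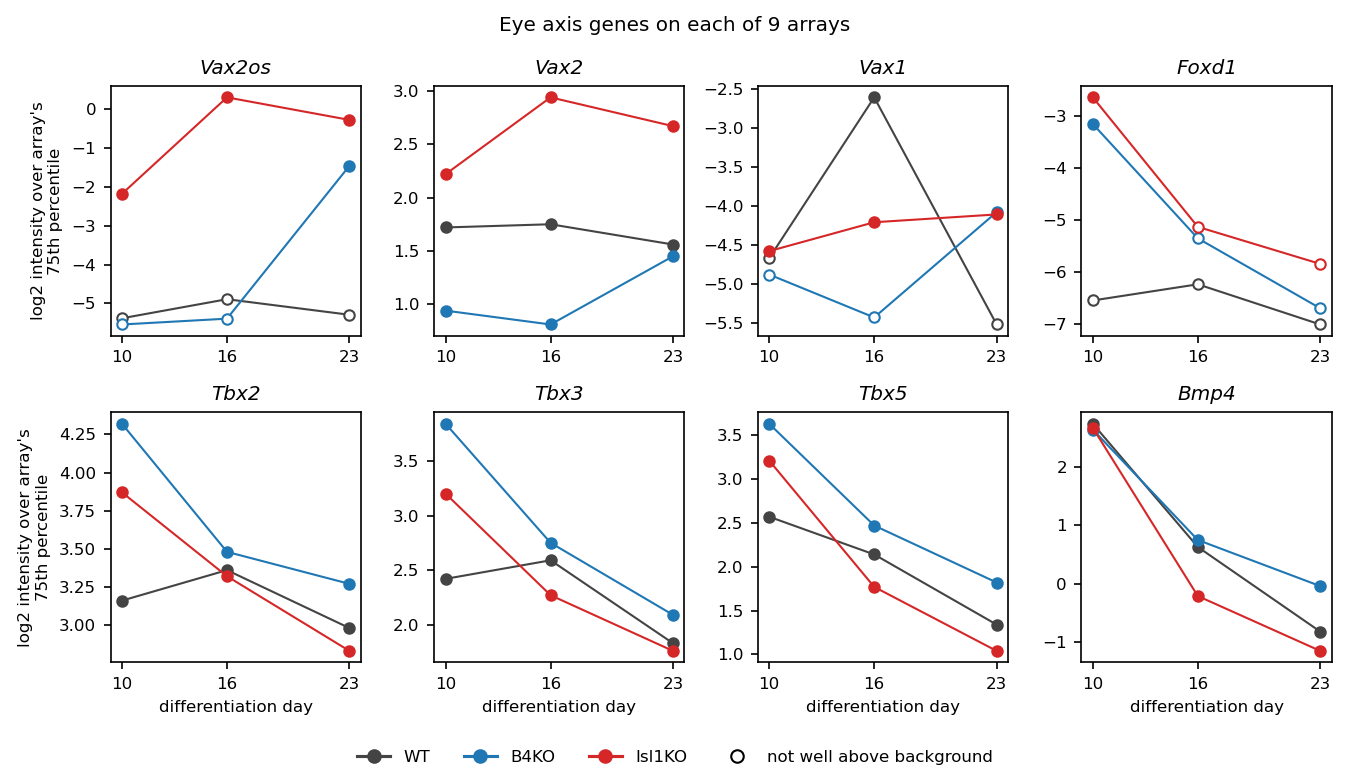
Log2 intensity relative to the array's 75th percentile (y axis, scaled per panel) by differentiation day (x axis) for the brightest probe of each of the 8 axis genes, 1 point per array, joined within a line; open points were not well above background. Vax2os and Vax2 are highest in Isl1KO on each day, and Bmp4 and Tbx5 fall with day in every line.

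**Figure D4:**
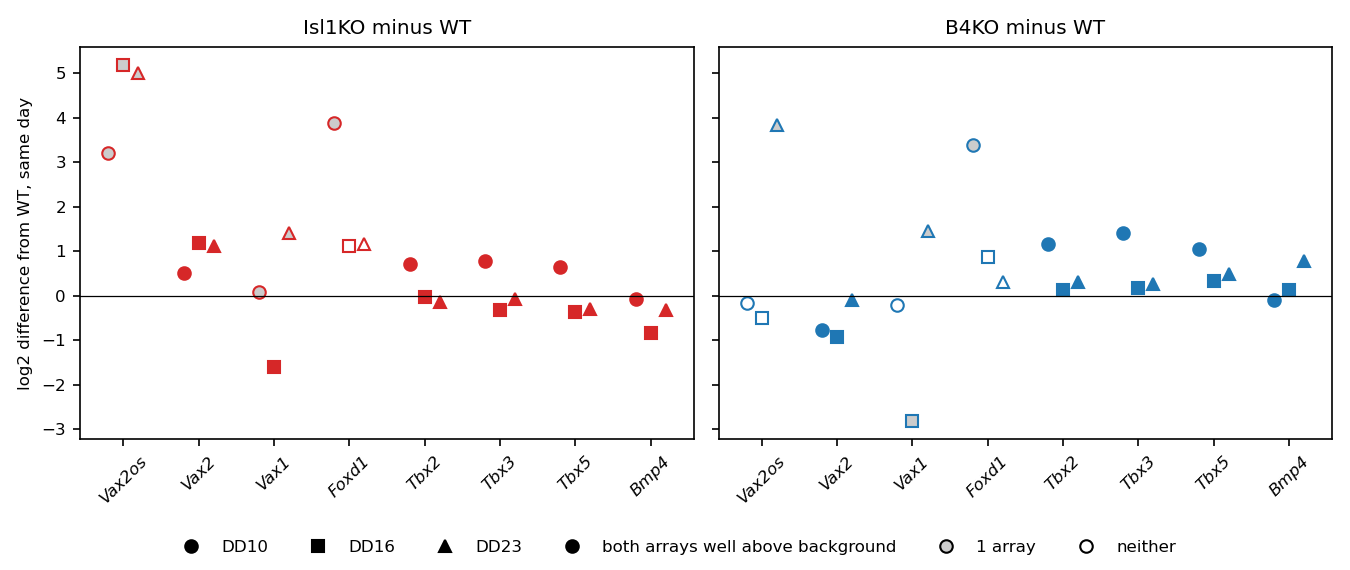
Log2 difference of each knockout array from the WT array of the same day (y axis) for the 8 axis genes (x axis); marker shape gives the day and fill gives how many of the 2 arrays were well above background. Vax2os and Vax2 lie above 0 on all 3 days in Isl1KO, and Tbx2, Tbx3 and Tbx5 lie above 0 on all 3 days in B4KO, highest at DD10.

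Foxd1, the temporal marker, was measured in both knockouts at DD10 and nowhere else. Its log2 level (chr13:99126452-99126511, plus strand, mm9) was -3.16 in B4KO and -2.65 in Isl1KO at DD10. On the other 7 arrays, the 3 WT arrays among them, it read -7.00 to -5.13 and was not well above background. At DD10 it was at least 2.57-fold above WT in B4KO and at least 3.66-fold in Isl1KO, which was 1.42-fold above B4KO. At DD16 it was at least 2.70-fold lower than at DD10 in B4KO and at least 5.58-fold lower in Isl1KO. With 1 array on each side these folds have no test, and the WT array at DD10 is the one with the high forebrain sum.

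The wider set of eye axis genes was read through 4 lists that leave out the 8 genes above: 19 dorsal and BMP pathway genes, 9 BMP antagonists, 10 ventral and optic stalk genes (9 in the fit, without Ntn1) and 10 nasotemporal genes. Counts are those passing an adjusted p of 0.05 by limma with Benjamini-Hochberg adjustment over all genes.

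Many dorsal and BMP pathway genes fell with day, beside Bmp4. From DD10 to DD16, 10 of 19 fell and 2 rose (median difference -0.38), against 18.8% of all genes lower and 21.9% higher (median 0.03). Markers of other tissues fell at this step too, 4 of 6 forebrain markers (median -2.32) and 4 of 7 pigment epithelium markers (median -1.28), and their part in the dorsal list's values was not tested. The largest falls were Smad9, a BMP signal transducer (-2.19, SE 0.30, adjusted p = 0.00374), Id3, a target of BMP signals (-2.04, SE 0.17, 0.000892), and Aldh1a1. Aldh1a1, the dorsal enzyme of retinoic acid synthesis, fell by 1.89 (SE 0.34, 0.00808). Its log2 level dropped from 7.34 to 6.01 and 3.96 in WT, from 8.07 to 6.16 and 5.30 in B4KO, and from 7.82 to 5.39 and 3.38 in Isl1KO. The genes that rose were Efnb2, a dorsal ephrin (0.67, SE 0.14, 0.0126), and the receptor gene Bmpr2 (0.30, SE 0.08, 0.0344). From DD16 to DD23, 15 of 19 fell and 0 rose (median -0.72), against 21.9% of all genes lower and 19.3% higher (median 0.01). Among them were Gdf6, a dorsal BMP ligand (-2.49, SE 0.32, 0.00284), Id2 (-1.73, SE 0.16, 0.00127) and Smad9, at least 2.44-fold lower, with 2 of 3 DD16 arrays and no DD23 array well above background.

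The antagonists, which bind BMP ligands outside the cell, were called in about the share of all genes. From DD10 to DD16, 3 of 9 fell and 1 rose (median 0.23), against 40.7% of all genes called. Fst fell by 3.13 (SE 0.12, adjusted p = 0.000159, limma; well above background at DD16 in Isl1KO alone) and Twsg1 fell by 0.48, while Bmper rose by 0.64 (SE 0.19, 0.0367). From DD16 to DD23, 4 of 9 fell, with Chrdl1 at -1.55 and Grem1 at -1.16, and 0 rose, against 41.2% of all genes called.

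Of the ventral and optic stalk genes, 5 of 9 were called from DD10 to DD16, 3 lower and 2 higher, against 18.8% of all genes lower and 21.9% higher. The falls were led by Aldh1a3, the ventral enzyme of retinoic acid synthesis (-3.11, SE 0.39, adjusted p = 0.00284, limma), with Cyp1b1 at -1.20 and Zic2 at -0.59. Bmpr1b (1.14, SE 0.23, 0.012) and Ephb2 (0.35) rose. From DD16 to DD23, 5 of 9 fell and 0 rose (median -0.90), against 21.9% of all genes lower and 19.3% higher, with Aldh1a3 at -1.81 (well above background at DD23 in Isl1KO alone), Nr2f1 at -1.29 and Zic2 at -1.01. Vax2, whose day differences averaged over the lines were 0.21 and 0.06, was thus not among the ventral genes that fell.

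In the nasotemporal list 3 of 10 fell and 1 rose from DD10 to DD16, close to the 40.7% of all genes called: Epha4 (-2.34, SE 0.12, adjusted p = 0.000258, limma), Epha7 (-1.56) and Efna5 (-0.88) against Epha3 (0.73). From DD16 to DD23 Efna5 (-1.04) and Epha4 (-0.39) fell and 0 rose, against 41.2% of all genes called. Eph receptors and ephrins of this list guide the map of ganglion cell axons.

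**Figure D5:**
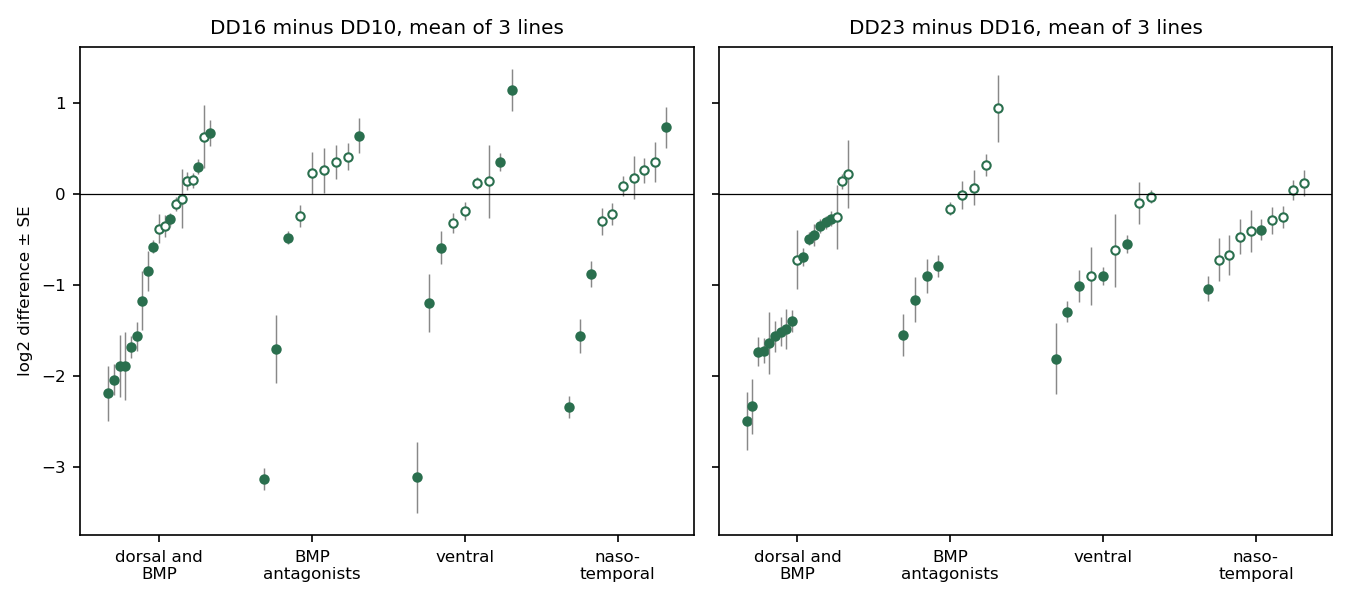
Fitted log2 difference (y axis, with SE bars) of each gene in 4 lists (x axis, ordered by value within a list), mean of 3 lines, for DD16 minus DD10 (left) and DD23 minus DD16 (right); filled points passed an adjusted p of 0.05. In the dorsal and BMP list 10 of 19 fell at the first step and 15 of 19 at the second.

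Between B4KO and WT, 3.99% of all genes were called higher and 18.0% lower. In the dorsal list 2 of 19 rose and 0 fell: Efnb2 (0.76, SE 0.14, adjusted p = 0.0112, limma) and Smad6, an inhibitor of BMP signalling (0.65, SE 0.16, 0.0322). Of the antagonists Nog (-1.11, SE 0.15, 0.00327) and Chrd (-0.85, SE 0.12, 0.00388) fell and Twsg1 (0.29) rose. Nog read -2.04, -1.28 and -1.69 in WT, -3.02, -2.81 and -2.52 in B4KO, and -1.95, -1.68 and -1.60 in Isl1KO, so B4KO was the low line on every day. Pax2, which marks the optic stalk, was the 1 ventral gene of 9 that fell (-1.70, SE 0.40, 0.0303), in a list with a median of 0.16. Its log2 level was -1.15, -0.55 and -0.40 in WT, -1.74, -2.32 and -3.13 in B4KO, and -0.03, 0.36 and -0.83 in Isl1KO. B4KO was thus the lowest line for Pax2 on each day, as it was for Vax2. For Nog and Pax2 every B4KO array was below every array of the other lines, as was so for 15.2% of all genes. The B4KO line and its slide cannot be told apart here either. In the nasotemporal list Epha6 was called lower (adjusted p = 0.00335), but it was well above background on 1 of 3 WT arrays and on no B4KO array, so no fold is given.

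Isl1KO minus WT had medians close to those of all genes (0.01) in the 4 lists: -0.11 in the dorsal list, where 17 of 19 genes were below 0, 0.03 for the antagonists, 0.07 for the ventral and -0.03 for the nasotemporal list. None of these has a test.

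The axis genes' log2 levels over the 9 arrays were also set against each other and against all other genes, as a description, since the arrays share lines, days and pools. Tbx2, Tbx3 and Tbx5 followed each other closely (Pearson's r 0.92 to 0.98), and Bmp4 went with Tbx5 (0.93) more than with Tbx3 (0.82) or Tbx2 (0.73). Vax2 and Tbx5 had an r of -0.47. Among 6156 candidate genes, those most like Vax2os were Aktip (0.877), Cldnd1 (0.82), Vax2 itself (0.81), H2bc4 (0.808) and Rian (0.785). Vax2os was well above background on 4 arrays only, 3 of them of Isl1KO, so these values rest largely on that line. Those most like Vax2 were Capn11 (0.896), Kcnv2 (0.887), Rian (0.881), Ifna14 (0.876) and Gjd3 (0.875). Rian, an imprinted noncoding RNA, appeared for both, reading -0.36, 1.59 and 2.16 in Isl1KO and between -4.00 and -2.36 in the other lines. Tbx5 was matched more tightly, by Polr2f (0.991), Samd1 (0.989), Nvl (0.988), Tssc4 (0.988) and Ctdspl (0.987). Foxd1 was most like Aldh7a1 (0.907), Nup188 (0.905), Cpxm1 (0.892), Crabp1 (0.892) and Six3os1 (0.891), although it was well above background on 2 arrays only.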

How the data were processed

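RNA of 9 samples was labelled with Cy3 and hybridised to Agilent single-colour arrays. Spot intensity came from Agilent Feature Extraction (version 12.0.3.1 in the submitters' processing notes). The deposited processed intensity was background-subtracted, with no scaling between arrays, per the file headers. Flags for spots well above background, saturated or outlying were deposited beside it.

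Here, spots of a probe were averaged, 102 probes with an outlier flag were left out, and the log2 intensity was taken relative to the array's 75th percentile. Of 56605 gene probes, 32994 were matched by accession to RefSeq (GRCm38.p6, for names) and 23611 kept the file's name. Coordinates are those of the array design (mm9). Each gene was read by its brightest probe well above background on at least 3 arrays.

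Genes were tested with limma 3.58.1 (R 4.3.3; files were read by data.table, release 1.17.8), with line and day as additive terms (residual degrees of freedom 4, prior 2.01). Benjamini-Hochberg adjustment ran over 23594 genes at 0.05. With no replicates, the spread behind each SE and p is the departure from additivity, so it holds any interaction of line and day, and precision is limited by having 9 arrays. Comparisons that share WT arrays are not independent. Contrasts with Isl1KO led to the choice of genes and have values and SEs but no test. The fit was tested on simulated data. Alternatives were quantile normalization, a percentile over detected probes, normexp with an offset of 50, 2 other filters on dim probes, the mean over a gene's probes, the deposited value table, an intensity trend, the slide of WT and Isl1KO alone, and each array left out.

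The genes and lists were chosen with earlier results of these data known. Named beside the 8 genes are, per list and comparison, at most the 3 largest rises and falls that passed, marker genes, genes within 200 kb of Vax2 and Vax2os, and for 4 genes the 5 others with the highest Pearson's r that varied by at least 1 on the log2 scale. Some genes of these lists are counted but not reported here by name.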

Additional observations from a re-analysis of the deposited data

Results flagged for a closer look

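Vax2 lay on opposite sides of WT in the 2 knockouts on every day. It was above WT in Isl1KO by 0.50, 1.19 and 1.11 at DD10, DD16 and DD23, and below WT in B4KO by 0.78, 0.94 and 0.10, on the log2 scale. B4KO minus WT was not called (-0.61, SE 0.22, adjusted p = 0.101, limma). Its DD23 value was smaller than this SE, which is that of the mean over 3 days and not of a single day. The differences from WT were 1.54 apart on average (SE 0.22, Isl1KO minus B4KO). This difference between the knockouts was not tested, since the Isl1KO contrasts led to the choice of genes. Both are measured against the same 3 WT arrays, and 4.35% of all genes had this pattern of signs on all 3 days. With each array left out in turn the value was 1.31 to 1.75, lowest without B4KO at DD16.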

How the results depend on the processing

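The fall of Bmp4 from DD10 to DD16 passed under all 18 alternatives (-2.56 to -2.03, adjusted p 0.000164 to 0.0109, limma), and Vax2 was above WT in Isl1KO under all 18 (0.73 to 1.11). Vax2os, Isl1KO minus WT, was 2.68 after normexp correction, and 3.64 to 5.09 with 1 array left out. The count of axis genes called between B4KO and WT was 1 with normexp, 2 with the intensity trend and 0 with each array left out. From DD10 to DD16 it was 1 on the slide of WT and Isl1KO alone and 1 to 4 with an array left out. From DD16 to DD23 it was 1 on that slide, 1 with no filter on dim probes, 3 with the intensity trend, and 0 to 4 with an array left out. The lone slide and left-out fits use fewer arrays; the cause of the other shifts was not tested. Among the tested comparisons, signs turned as follows: for DD23 minus DD16 on that slide, Vax2 was -0.23 and Vax2os -0.49. With an array left out, B4KO minus WT was -1.38 to 0.44 for Vax1 and -0.20 to 2.02 for Vax2os. DD16 minus DD10 was -0.34 to 1.38 for Vax1 and 0.00 to 0.44 for Vax2. DD23 minus DD16 was -1.24 to 0.48 for Vax1, -0.17 to 0.27 for Vax2 and -0.27 to 1.82 for Vax2os. In contrasts with no test, Isl1KO minus WT was -0.89 to 0.93 for Vax1, -0.12 to 0.33 for Tbx2, -0.23 to 0.36 for Tbx3 and -0.28 to 0.15 for Tbx5, and Isl1KO minus B4KO was -0.26 to 1.12 for Vax1. Of 589 values of single genes under the alternatives, 540 kept direction and side of the threshold or moved by less than their spread. Over all genes, the number called between B4KO and WT was 3417 without WT at DD10 and 3417 without WT at DD23, against 5193. From DD10 to DD16 it was 4899 on the slide of WT and Isl1KO, 5899 without Isl1KO at DD10 and 5917 without Isl1KO at DD16, against 9606. Vax2os in WT, Foxd1 in WT and Vax1 on 4 arrays were too close to background for a measured fold.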
